A study of Mus musculus with 17 samples.

Results

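Hemoglobin is built from alpha-like and beta-like globin chains, whose genes lie in separate clusters in the mouse genome. Within each cluster some genes serve the embryo (Hba-x in the alpha cluster, Hbb-y and Hbb-bh1 in the beta cluster) and others the fetus and adult (Hba-a1, Hbb-b1 and Hbb-b2), and red cell precursors make these chains in bulk. Eraf, the older name of Ahsp, encodes a chaperone of erythroid cells that binds free alpha chains before they pair with beta chains.

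The globin genes and their chaperone were read in 6 stem and progenitor populations of mouse bone marrow. They were taken as every non-control probe whose gene name in the array design was Hba-a1, Hba-x, Hbb-b1, Hbb-b2, Hbb-bh1, Hbb-y or Eraf. This gave 10 of 41174 non-control probes, for 6 of the 28090 gene names. Hbb-b2 was absent: no probe carries that name. Hbb-b1 has 4 probes, Hbb-bh1 has 2, and Hba-a1, Hba-x, Hbb-y and Eraf have 1 each.

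RNA came from bone marrow of female C57Bl/6 mice aged 6 to 8 weeks, with no genetic change or treatment in any group, and 10 to 20 mice were pooled for each replicate. Marrow was first depleted of cells bearing B220, CD3, GR-1 or Ter119, a red cell antigen, then enriched for c-kit, and sorted in 2 kinds of FACS run. One gave the HSC subsets, all positive for Sca1: long-term stem cells (LT-HSC, negative for CD34 and FLT3, 2 arrays), short-term stem cells (ST-HSC, positive for CD34 only, 3 arrays) and multipotent progenitors (MPP, positive for both, 3 arrays). The other gave the myeloid progenitors, negative for Sca1: common myeloid progenitors (CMP, intermediate for CD34 and FcRg, 3 arrays), granulocyte-monocyte progenitors (GMP, positive for both, 3 arrays) and megakaryocyte-erythroid progenitors (MEP, negative for both, 3 arrays). The sort that separated HSC subsets from myeloid populations is thus shared by every array of a side, and its part in a difference between them cannot be told apart from that of the populations.

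Each of the 17 arrays was an Agilent 1-colour array, and levels below are log2 intensities after quantile normalization over all arrays, a scale on which 1 unit is a doubling. A replicate is named by its label: 1, 2, 3, unnumbered, or, for one LT-HSC array, a pool of replicates 2 and 3. By the scan dates in the file headers the arrays fell into 3 scanning runs, of which run 2 covered 2 days: run 1 held replicates 1 and 2 of CMP, GMP and MEP, run 2 the unnumbered ST-HSC, MPP, CMP, GMP and MEP arrays, and run 3 the other HSC arrays. On the unnumbered LT-HSC array only 41.4% of non-control spots were well above background, against 48.2% to 70.2% on the others, so its removal was tried throughout: it took away 1 of the 7 calls of the F-test over all populations and, of the calls between groups below, only that of Hbb-bh1 in HSC subsets against the myeloid populations. Of 10 stem cell markers 9 were higher in HSC subsets than in the myeloid populations (18.2% of all probes), all 10 were lower in MEP than in the others (13.4% of all probes), and 7 of 8 GMP markers were lower in HSC subsets than in GMP (17.5% of all probes). All p-values measure the spread between the arrays of a population.

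The probes are shown because they bear on which chain each value speaks for, though their sequences were compared only with one another. All are 60 bases long and are written as the strand of the messenger RNA, with capitals for bases shared with an overlapping probe in the set or with the Hba-a2 probe. Coordinates are in mm9 as the array design gives them, without annotation of that build.

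Hba-a1, chr11:32183775-32183956, plus strand: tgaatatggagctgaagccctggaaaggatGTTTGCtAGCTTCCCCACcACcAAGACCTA
Hba-a2, chr11:32196744-32196803, plus strand: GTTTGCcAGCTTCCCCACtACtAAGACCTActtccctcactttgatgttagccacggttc
Hbb-b1 (A_51_P374468), chr7:110962317-110962376, minus strand: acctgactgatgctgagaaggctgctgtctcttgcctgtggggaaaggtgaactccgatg
Hbb-b1 (A_52_P260346), chr7:110962031-110962090, minus strand: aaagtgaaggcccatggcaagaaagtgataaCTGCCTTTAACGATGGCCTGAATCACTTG
Hbb-b1 (A_51_P374476), chr7:110962000-110962059, minus strand: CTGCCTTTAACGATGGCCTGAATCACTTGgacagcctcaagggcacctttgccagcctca
Hba-x, chr11:32177668-32177727, plus strand: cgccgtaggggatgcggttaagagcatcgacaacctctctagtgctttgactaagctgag
Hbb-bh1 (A_51_P179672), chr7:110990307-110990366, minus strand: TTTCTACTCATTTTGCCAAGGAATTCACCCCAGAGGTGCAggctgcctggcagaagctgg
Hbb-y, chr7:111001412-111001471, minus strand: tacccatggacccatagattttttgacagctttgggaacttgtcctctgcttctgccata
Eraf, placed on no chromosome in the design: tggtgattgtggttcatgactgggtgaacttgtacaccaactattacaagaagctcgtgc

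The Hba-a1 probe spans 182 bases of the genome, more than its own length, so its target is split there. Its last 30 bases match the first 30 of the Hba-a2 probe at all but 3 positions, which counted from 1 at the 5′ end of the Hba-a2 probe are C7T, T19C and T22C (Hba-a2 base first). Hba-a1 and Hba-a2 are near-identical adult genes, and signal of one probe may hold RNA of both. Among the Hbb-b1 probes A_51_P374476 and A_52_P260346 share 29 bases and are not independent readings, and A_51_P374468 lies upstream of both. The fourth, A_52_P213909 (chr7:110961112-110961171, minus strand), lies downstream of the others. RefSeq (GRCm38.p6) now lists the transcript of all 4 under Hbb-bt, an adult beta-globin gene whose close copy is Hbb-bs, so these values are best read as adult beta-globin. The 2 Hbb-bh1 probes share 40 bases.

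Over the 6 populations 7 of the 10 probes differed in the F-test of limma (adjusted p below 0.05), beside 40.6% of all probes. The 7 were those of Hba-a1, Hbb-b1, Eraf and Hbb-y. The other 3, of Hba-x and Hbb-bh1, were at or near background on most arrays. The adult globin and Eraf probes were well above background on all 17 arrays and saturated on none.

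Hba-a1 encodes the adult alpha chain. Its level was 12.04 in the pooled and 12.34 in the unnumbered LT-HSC array, and ST-HSC replicates 2, 3 and unnumbered gave 11.19, 12.50 and 12.23. For MPP the values were 9.93, 11.10 and 11.22 in the same order. The HSC subsets therefore carried Hba-a1 signal far above background on every array, with MPP below LT-HSC on all 3 arrays.

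In the myeloid populations Hba-a1 was 10.17, 8.47 and 10.25 in CMP replicates 1, 2 and unnumbered, and 8.26, 7.01 and 9.15 in GMP. It was 12.85, 12.17 and 13.80 in MEP. By mean the order was MEP (12.94 ± 0.82, SD, n = 3), LT-HSC (12.19 ± 0.21, n = 2), ST-HSC (11.98 ± 0.69, n = 3), MPP (10.75 ± 0.71, n = 3), CMP (9.63 ± 1.01, n = 3) and GMP (8.14 ± 1.08, n = 3). Each neighbouring pair in this order overlapped in range, while MEP lay wholly above CMP and every HSC array above every GMP array.

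Hbb-b1 encodes the adult beta chain. At its most upstream probe, A_51_P374468, LT-HSC arrays read 11.55 and 12.43, ST-HSC arrays 10.75, 12.30 and 11.72, and MPP arrays 9.89, 10.80 and 11.12. CMP arrays read 9.12, 7.78 and 9.94, GMP arrays 7.74, 6.57 and 8.71, and MEP arrays 11.47, 10.69 and 13.04. LT-HSC, not MEP, had the higher mean here (11.99 ± 0.63, n = 2, against 11.74 ± 1.20, n = 3), and the 2 populations overlapped.

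At the most downstream probe, A_52_P213909, LT-HSC gave 14.22 and 13.58, ST-HSC 12.91, 13.94 and 13.82, and MPP 12.60, 13.71 and 13.25. CMP gave 11.70, 10.30 and 11.34, GMP 9.70, 8.29 and 10.004, and MEP 14.20, 13.62 and 15.34. At this probe the populations fell into 3 tiers without overlap: MEP with all HSC subsets on top, then CMP, then GMP. The middle probes gave the same order of CMP and GMP below the rest, with mean levels in LT-HSC, CMP, GMP and MEP of 12.11, 9.5, 8.06 and 12.26 at A_52_P260346 and of 13.94, 11.09, 9.45 and 13.75 at A_51_P374476.

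**Figure D1:**
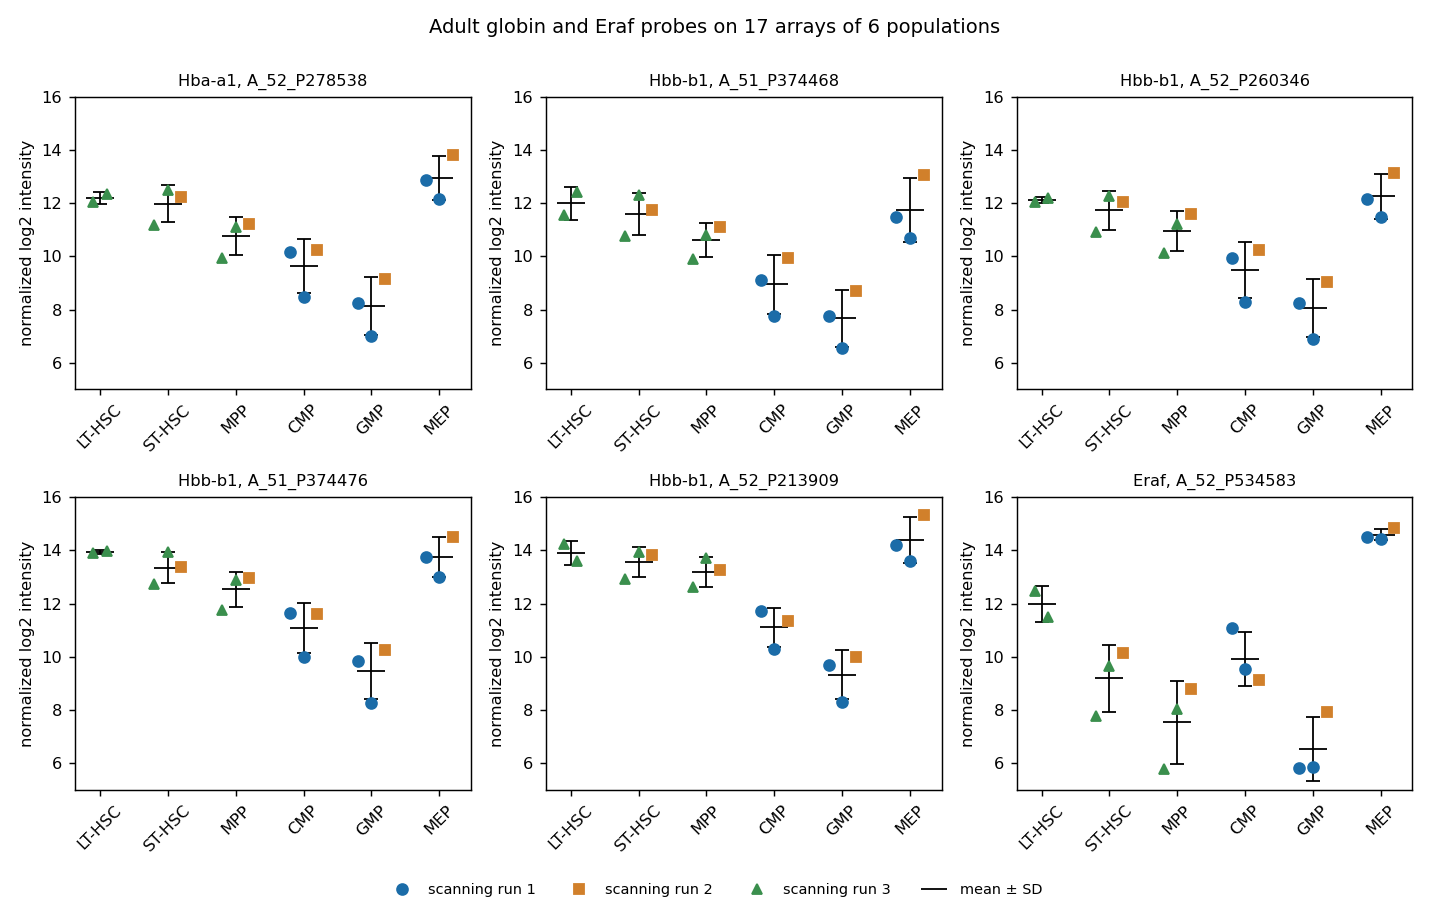
Normalized log2 intensity (vertical axis) of the Hba-a1 probe, the 4 Hbb-b1 probes and the Eraf probe in each of the 6 populations (horizontal axis). Each point is 1 array, its shape and colour give the scanning run, and black bars are mean ± SD. The adult globin panels share one shape, high in HSC subsets and MEP and lowest in GMP, while Eraf stands apart in MEP, where its 3 arrays lie between 14.43 and 14.84.

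The 5 adult globin probes followed one another closely. Over the 17 arrays the Pearson correlation of the 10 pairs ranged from 0.956 to 0.994, and for deviations from the population means from 0.842 to 0.995, as a description of arrays that share labelling and scanning. Between Hba-a1 and the Hbb-b1 probes, whose clusters lie on different chromosomes, the correlation in those deviations was 0.919 to 0.995. In each of the 5 populations with a replicate 2, that array was the lowest of its population for all 5 adult globin probes. Of the 14790 probes well above background on all arrays, 1.19% had this property.

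Eraf, the alpha chain chaperone, was arranged differently. Its level was 14.50, 14.43 and 14.84 in MEP, 12.47 and 11.51 in LT-HSC, and 11.06, 9.56 and 9.13 in CMP. It was 7.77, 9.66 and 10.14 in ST-HSC, 5.78, 8.05 and 8.79 in MPP, and 5.81, 5.86 and 7.94 in GMP. MEP lay above every other array, and LT-HSC above every array of the remaining 4 populations. The order by mean was MEP (14.59 ± 0.22, n = 3), LT-HSC (11.99 ± 0.68, n = 2), CMP (9.91 ± 1.02, n = 3), ST-HSC (9.19 ± 1.26, n = 3), MPP (7.54 ± 1.57, n = 3) and GMP (6.53 ± 1.21, n = 3). From CMP downwards each neighbouring pair overlapped. CMP thus ranked above ST-HSC and MPP for Eraf and below both for all 5 adult globin probes.

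Eraf correlated less with the globins than they did among themselves, with r from 0.631 to 0.767 over the 17 arrays and from 0.491 to 0.651 for the deviations from population means.

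MEP were set against the other 5 populations, taken as the mean of their 5 means, which asks what marks the progenitor of red cells and platelets: 6 of the 10 probes were higher and none was lower. This stands beside 17.9% of all probes called higher. The median difference of the 10 probes was 1.63 and that of all probes 0.04. Eraf rose most, by 5.56 ± 0.66 (log2 difference ± SE, adjusted p = 2.32e-05 by limma), a 47.05-fold difference. Hba-a1 rose by 2.40 ± 0.50 (adjusted p = 0.00213), or 5.28-fold. The Hbb-b1 probes rose by 1.58 to 2.17, from 2.98-fold at A_51_P374468 (adjusted p = 0.0493) to 4.49-fold at A_52_P213909 (adjusted p = 0.00159). The MEP ranges overlapped those of the other populations for all 5 adult globin probes and did not for Eraf. LT-HSC and ST-HSC overlapped MEP at all 5 probes, while for Hba-a1 every MPP array (up to 11.22) lay below the lowest MEP array (12.17).

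One array decided part of this count. Without MEP replicate 1 or without the unnumbered MEP array, 3 probes were called, those of Hba-a1, Eraf and Hbb-b1 A_52_P213909. The difference at A_51_P374468 ranged from 0.92 to 2.10 as each array was left out and was called in 5 of 17 such fits. Within run 1, where MEP was set against CMP and GMP only, all 6 were called, beside 5848 of all 41174 probes called higher.

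The step from CMP to MEP, into the erythroid branch, gave the same 6 probes as higher, beside 7.24% of all probes. The median difference of the 10 was 2.71, against 0.10 over all probes. Eraf was 4.67 ± 0.84 higher in MEP (adjusted p = 0.00145) and Hba-a1 3.31 ± 0.64 higher (adjusted p = 0.0023). The Hbb-b1 probes were 2.67 to 3.27 higher, or 6.35-fold to 9.66-fold. For each of these 6 probes all 3 MEP arrays lay above all 3 CMP arrays, a property that was not counted over all probes. In each of the 3 pairs of arrays of the same label, MEP exceeded CMP at every adult globin probe (2.10 to 4.01) and at Eraf (3.44 to 5.71). The adult globin probes are not independent readings of a pair. Within run 1 alone (2 arrays a side) only Eraf was called, beside 4909 of all 41174 probes called higher. The difference of Hba-a1 was of similar size there (3.19, limma adjusted p = 0.0538). Without CMP replicate 2 the count was 4, as the Hbb-b1 probes A_51_P374468 and A_52_P260346 dropped out. With the replicate label as a block over the CMP, GMP and MEP arrays 7 probes were called, beside 18.7% of all probes, the 6 and that of Hbb-y, which was well above background on 1 of those 6 MEP and CMP arrays.

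CMP against GMP, the step into the granulocyte and monocyte branch, gave 1 called probe, beside 2.93% of all probes called higher. The median difference was 1.35 for the 10 and -0.04 for all. The called probe was Eraf, 3.38 ± 0.84 higher in CMP (limma adjusted p = 0.0358), 10.4-fold, with no overlap. That call did not survive the loss of CMP replicate 1 (2.81, adjusted p = 0.176), CMP replicate 2, GMP replicate 1, GMP replicate 2, MEP replicate 1 or MEP replicate 2. In run 2 the difference was 1.19, from 1 array a side.

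The adult globin probes were 1.27 to 1.78 higher in CMP than in GMP, and their call depended on the pairing of arrays. Without a block none passed the threshold. The 95% interval of the Hba-a1 difference ran from 0.11 to 2.86 (adjusted p = 0.33). In each of the 3 pairs of arrays of one label CMP exceeded GMP at all 5 adult globin probes, by 1.10 to 2.01. These probes are not independent readings of a pair. With the replicate label as a block over the CMP, GMP and MEP arrays all 5 adult globin probes passed (limma adjusted p from 0.0127 to 0.0237), beside 5.1% of all probes called higher in that fit, and Eraf missed the threshold (adjusted p = 0.051). The same block over all 17 arrays called these 5 and Eraf, beside 4.22% of all probes. With the slide as a random block 3 probes were called, beside 4.34% of all probes, Eraf and the Hbb-b1 probes A_51_P374476 (adjusted p = 0.0418) and A_52_P213909 (adjusted p = 0.0216).

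The HSC subsets against GMP gave 7 probes as higher, beside 12.8% of all probes. The median difference of the 10 was 3.27. Hba-a1 was 3.50 ± 0.53 higher in the HSC subsets (adjusted p = 0.000297), or 11.3-fold. The Hbb-b1 probes were 3.55 to 4.22 higher, 18.6-fold at A_52_P213909 (adjusted p = 2.34e-05). For these 5 probes no HSC array overlapped a GMP array, a property that was not counted over all probes. Each also kept its call with the scanning run as a block and when any 1 of the 17 arrays was left out. Within run 2 the ST-HSC and MPP arrays exceeded the GMP array by 2.58 for Hba-a1 and by 2.71 to 3.53 for the Hbb-b1 probes.

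Eraf was 3.04 ± 0.70 higher in the HSC subsets than in GMP (adjusted p = 0.00504), with overlapping ranges. It leaned on LT-HSC: without both LT-HSC arrays the difference was 1.83 (adjusted p = 0.0873). The seventh probe was that of Hbb-y, described below.

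**Figure D2:**
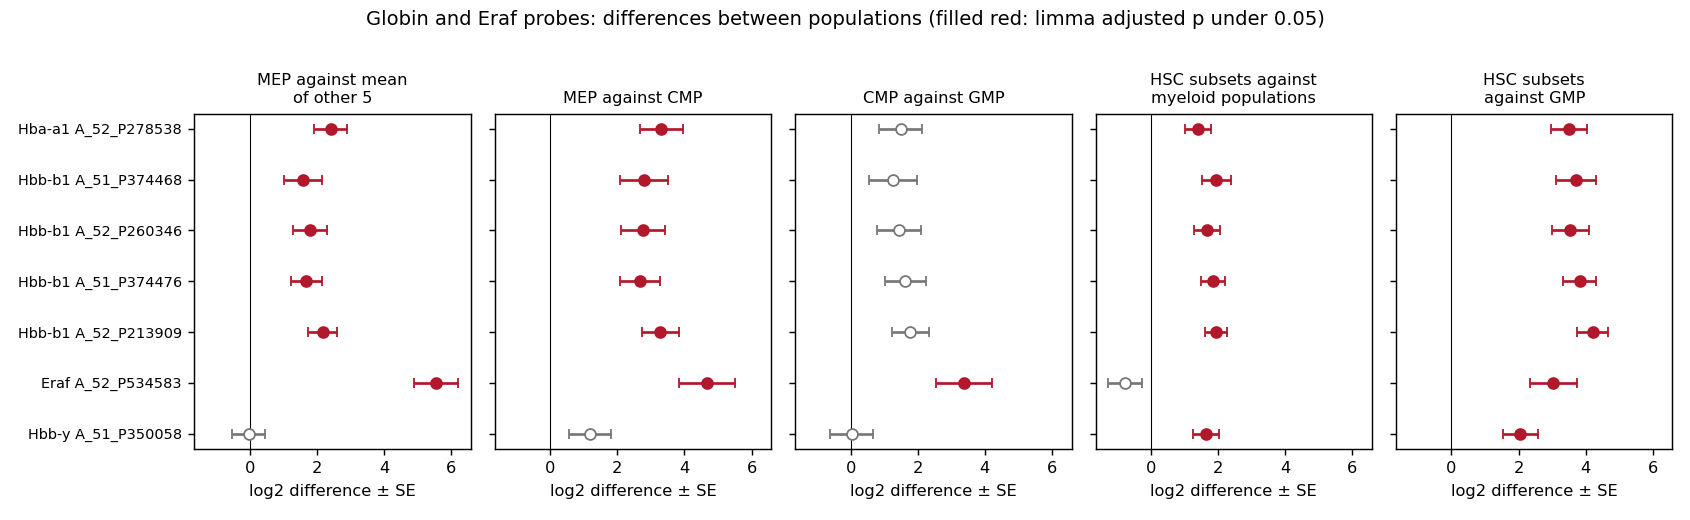
Log2 differences (horizontal axis, points with bars of ± 1 SE from the limma fit) of 7 probes, one per row, in 5 comparisons, one per panel. Filled red points passed an adjusted p of 0.05, open grey points did not. In this fit without a block adult globins pass in 4 of the 5 comparisons, and Eraf lies furthest right in MEP against the other populations (5.56) but below 0 in HSC subsets against the myeloid populations (-0.77).

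All HSC subsets against all myeloid populations, the broadest split, gave 7 probes as higher, beside 18.2% of all probes, with a median difference of 1.52 against -0.02. Hba-a1 was 1.40 ± 0.38 higher in the HSC subsets (adjusted p = 0.00989) and the Hbb-b1 probes 1.67 to 1.94 higher. Every probe overlapped between the sides. With the scanning run as a block the adult globin differences were 1.0 to 1.5 and none passed (adjusted p from 0.117 to 0.33). The 1 probe called in that fit was Hbb-bh1 A_52_P305876, lower in the HSC subsets, which was above background on 0 arrays, and 6.86% of all probes were called higher and 7.64% lower. Eraf was 0.77 lower in the HSC subsets, with a 95% interval from -1.87 to 0.32 (adjusted p = 0.249). Without both LT-HSC arrays Eraf was 1.98 lower and passed (adjusted p = 0.0138), while Hba-a1 was 1.13 higher and no longer passed (adjusted p = 0.0519). With the run as a block the Eraf difference turned to 0.22 higher (adjusted p = 0.926).

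The embryonic genes were dim. Hba-x, the embryonic alpha-like chain, was well above background on 1 of 17 arrays (MPP replicate 3, 3.01), and its other values lay between 1.80 and 2.87. Hbb-bh1, an embryonic beta-like chain, was well above background on 3 arrays at A_51_P179672, ST-HSC replicate 2 (3.87), MPP replicate 2 (4.24) and MPP replicate 3 (3.83), and on 0 arrays at A_52_P305876, though the probes share 40 bases. A_51_P179672 was counted among the probes higher in HSC subsets than in the myeloid populations (0.97, adjusted p = 0.0335), with the myeloid arrays all at background. After normexp background correction that difference was 0.02 (adjusted p = 0.743).

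Hbb-y, the other embryonic beta-like chain, was well above background on 9 arrays, 7 of the 8 HSC arrays and 2 of the 9 myeloid ones. LT-HSC arrays read 5.35 and 5.76, ST-HSC arrays 5.88, 6.46 and 4.44, and MPP arrays 6.36, 6.27 and 3.90. CMP arrays read 3.73, 3.21 and 3.65, GMP arrays 3.51, 2.85 and 4.14, and MEP arrays 4.79, 4.19 and 5.13. The 6 HSC arrays above 5 are those of run 3, and the ST-HSC and MPP arrays of run 2 fell within the range of the myeloid arrays.

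Hbb-y was 1.64 ± 0.38 higher in the HSC subsets than in the myeloid populations (adjusted p = 0.00357) and 2.05 ± 0.53 higher than in GMP (adjusted p = 0.00945). With 2 of 9 myeloid and 1 of 3 GMP arrays well above background, these sizes rest mostly on background values on the myeloid side. With the scanning run as a block these became -0.37 (adjusted p = 0.54) and 0.04 (adjusted p = 0.967), and within run 2 they were -0.14 and 0.02. Run 3 holds HSC arrays alone, so no comparison with a myeloid array exists inside it. In MEP and CMP only the unnumbered MEP array was well above background for Hbb-y, so no size of a difference between them is given. Without GMP replicate 2 the Hbb-y difference from GMP was 1.73 (adjusted p = 0.0664).

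**Figure D3:**
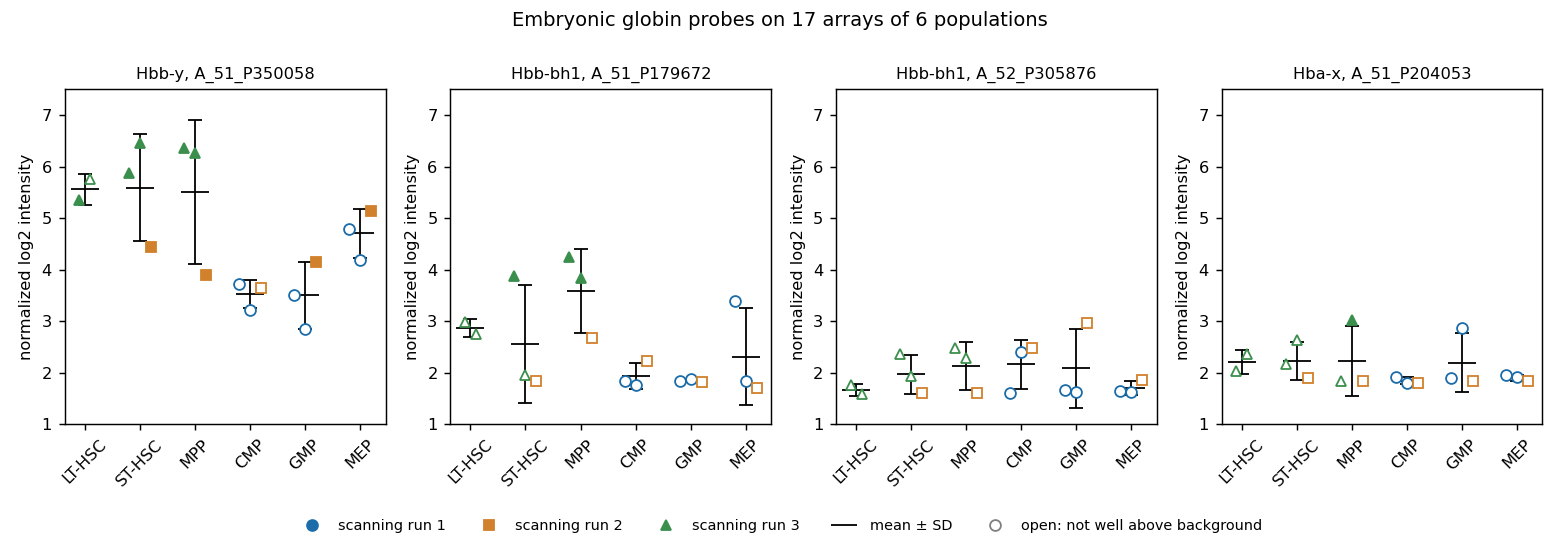
Normalized log2 intensity (vertical axis) of the embryonic globin probes in the 6 populations (horizontal axis), 1 point per array, with shape and colour for the scanning run, open points for arrays where the probe was not well above background, and bars of mean ± SD. Most points of Hba-x and Hbb-bh1 are open and lie below 3, and the 6 Hbb-y points of run 3 (green triangles) sit above 5 while the ST-HSC and MPP points of run 2 lie at 4.44 and 3.90.

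The promoters of 4 members, adult and embryonic, are shown as the 120 bases before the transcription start, from RefSeq on GRCm38.p6 with coordinates of that build. The table held no entry for Hbb-bh1 or Ahsp. Capitals mark matches, on either strand, to 4 motifs: CACCC (Klf family factors), CCAAT (the factor NF-Y), GATAA (Gata family factors) and ATAAA (part of many TATA boxes).

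Hba-a1, chr11:32283552-32283671, plus strand: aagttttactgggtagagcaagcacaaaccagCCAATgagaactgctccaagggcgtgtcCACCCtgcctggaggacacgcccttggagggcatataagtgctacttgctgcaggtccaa
Hbb-bt, chr7:103813924-103814043, minus strand: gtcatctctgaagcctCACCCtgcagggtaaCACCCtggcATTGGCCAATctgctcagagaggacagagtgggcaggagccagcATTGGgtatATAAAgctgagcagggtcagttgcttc
Hba-x, chr11:32276480-32276599, plus strand: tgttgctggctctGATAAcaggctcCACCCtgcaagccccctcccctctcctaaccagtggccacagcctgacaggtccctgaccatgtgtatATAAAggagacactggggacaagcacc
Hbb-y, chr7:103853208-103853327, minus strand: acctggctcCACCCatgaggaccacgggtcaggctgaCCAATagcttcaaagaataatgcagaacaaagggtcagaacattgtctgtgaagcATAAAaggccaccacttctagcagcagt

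All 4 windows hold CACCC, present in 31.7% of the 32851 promoter windows of this length. CCAAT (21.3% of windows) was found in those of Hba-a1, Hbb-bt and Hbb-y, ATAAA (20.2%) in those of Hbb-bt, Hba-x and Hbb-y, and GATAA (10.5%) in that of Hba-x alone. The Hba-a2 window matches that of Hba-a1 at all of 117 bases once moved by 3. A match is a description of letters and says nothing of use by a factor.

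Of the other globin superfamily genes 5 have a probe. Hba-a2 (A_52_P208681), the second adult alpha gene, is named so in one version of the array design and Hba-a1 in another, so which of the 2 genes it reads is uncertain. Its signal followed Hba-a1 with r = 0.989 over the arrays and was 2.32 ± 0.43 higher in MEP than in the other populations (adjusted p = 0.000971). Ngb (neuroglobin) was well above background on all arrays and was called in 1 comparison, 1.36 ± 0.39 higher in HSC subsets than in the myeloid populations (adjusted p = 0.0138). Cygb (cytoglobin) was well above background on 12 arrays, Hbq1 (theta globin) on 4 and Mb (myoglobin) on 0, and none of the 3 was called in any of the 5 comparisons.

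Among gene names other than the members themselves, those most like a member over the 17 arrays were listed by correlation, as a description over arrays that share depth and scanning. For Hbb-b1 (A_52_P213909) the 5 closest were 5730469M10Rik (0.965), Ssbp3 (0.961), Agpat4 (0.960), Hba-a2 (0.959) and Mllt3 (0.957). For Hba-a1 they were Hba-a2 (0.989), Slc4a1, the anion exchanger of the red cell membrane (0.959), the transcript model ENSMUST00000003516 (0.946), 4933428G20Rik (0.945) and Caprin2 (0.924). For Eraf they were Ank1, the ankyrin of the red cell skeleton (0.993), Rhd, a Rh blood group protein (0.991), Slc38a5 (0.987), Cldn13 (0.986) and Paqr9 (0.983). Hba-a2 stood in both globin lists, and no name of the Eraf list stood in either.

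Most listed genes that make heme, the group each globin chain binds, were higher in MEP, as Eraf was, and lower in HSC subsets than in the myeloid populations. Of 14 listed genes of heme synthesis and mitochondrial iron 11 were higher and 1 lower in MEP than in the others, beside 17.9% and 13.4% of all probes, with a median log2 difference of 2.04 beside 0.04 for all probes. Among them were Cpox (3.19) and Uros (2.73), enzymes of the pathway. In HSC subsets against the myeloid populations 0 were higher and 10 lower (median -0.84, all probes -0.02), the direction opposite to the adult globins, where 23.1% of all probes were called lower. Against GMP 2 were higher and 3 lower, beside 12.8% of all probes called higher and 17.5% called lower. Alas2, the erythroid first enzyme, was among the higher (1.54, limma adjusted p = 0.0399).

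Of 18 erythroid transcription factors and switching genes 10 were higher in MEP and 4 lower (median 1.01), beside 17.9% and 13.4% of all probes. Klf1 (4.92), Gata1 (4.01), both activators of erythroid genes, and Sox6 (1.74) differed most. In HSC subsets against the myeloid populations Klf1 was 1.95 lower (adjusted p = 0.000322) and Gata1 2.69 lower (adjusted p = 2.48e-06), while 5 genes of the list were higher and 5 lower, near the shares of all probes (18.2% and 23.1%). Of 14 genes of hemoglobin protection and iron uptake 9 were higher and 1 lower in MEP (median 1.28), beside the same shares, led by Epor, the erythropoietin receptor (4.37), Blvrb (3.47) and Steap3 (3.33). In HSC subsets against the myeloid populations 2 of these were higher and 8 lower, beside 23.1% of all probes called lower.

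**Figure D4:**
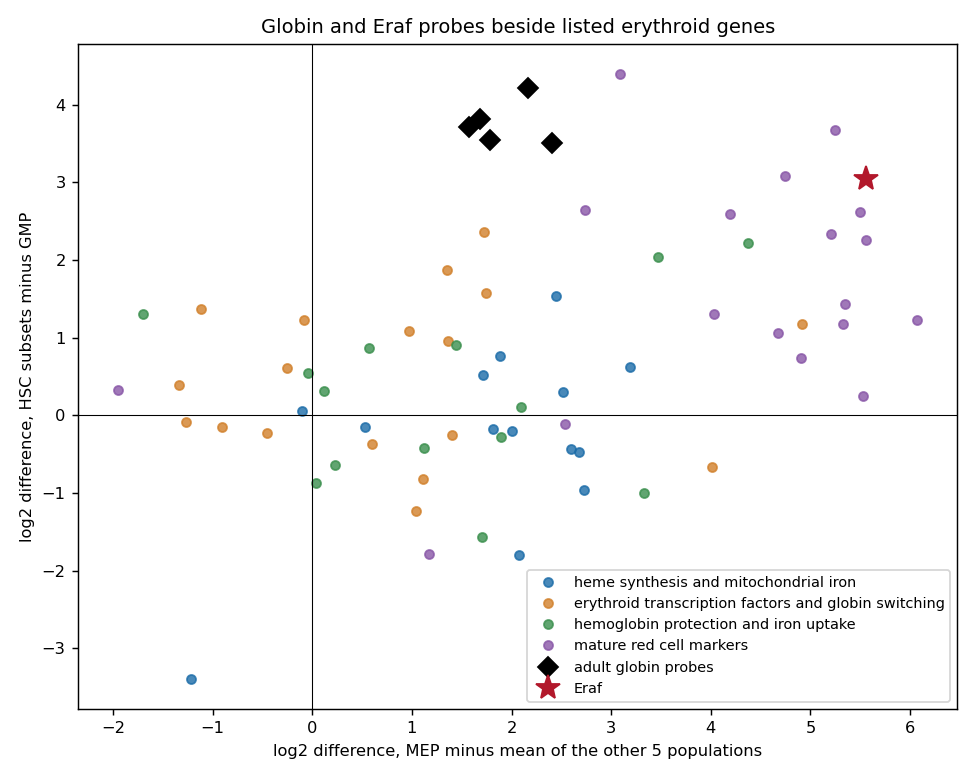
Log2 difference of MEP from the mean of the other 5 (horizontal axis) and of HSC subsets against GMP (vertical axis), 1 point per listed gene or probe. Both axes use the GMP and HSC arrays. The 5 adult globin probes (black diamonds) lie at 3.50 to 4.22 on the vertical axis and at 1.58 to 2.40 on the horizontal one, while Eraf (red star) lies among the mature red cell markers at the right, with 5.56 and 3.04.

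Markers of other cell types moved with some of these results. Of 18 mature red cell markers 16 were higher and 1 lower in MEP (median 4.83), beside 17.9% and 13.4% of all probes. Among them were Add2 (6.07), Rhag (5.56) and Spnb1 (5.53), which outside MEP were well above background on 12, 8 and 6 of 14 arrays. In HSC subsets against GMP 9 of the 18 were higher and 1 lower (median 1.37), beside 12.8% and 17.5% of all probes. In HSC subsets against the myeloid populations 2 of the 18 were higher and 12 lower (median -1.19), beside 18.2% and 23.1% of all probes. That direction is opposite to the adult globins. The log2 of their summed intensity ran from 17.14 to 17.37 in MEP, 15.19 to 16.09 in LT-HSC, 13.74 to 14.51 in ST-HSC, 12.89 to 13.79 in MPP, 13.33 to 15.04 in CMP and 11.16 to 11.54 in GMP. Slc4a1 was well above background on all HSC arrays, and its means (MEP 9.68, LT-HSC 8.12, ST-HSC 8.01, MPP 7.36, CMP 6.01, GMP 5.19) ran in the same order as those of Hba-a1. In the same comparison, beside 18.2% of all probes called higher, 5 of 11 mature neutrophil markers were higher and 1 lower, 6 of 12 macrophage markers higher and 1 lower, 10 of 11 T and NK cell markers higher, and 7 of 11 B cell markers higher. Against GMP, beside 12.8% of all probes called higher, the counts were 8 of 11 T and NK cell markers (median 2.37), 7 of 11 B cell markers (median 1.14), 4 of 12 macrophage markers with 3 lower, and 2 of 11 neutrophil markers with 1 lower. On GMP arrays 2 to 3 of the 11 T and NK cell markers were well above background, on CMP arrays 4 to 7 and on MEP arrays 3 to 8. For the 11 B cell markers these counts were 5 to 8, 6 and 7. Part of these lymphoid differences thus rests on background values on the myeloid side. The part of such cells in the globin values was not tested. In bulk RNA, a small share of cells with much globin RNA and a low level in every cell cannot be told apart.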

How the data were processed

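The 17 arrays were Agilent 4x44K 1-colour mouse arrays read with Feature Extraction (9.5.3.1 for run 1, 10.2.1.3 for runs 2 and 3). The deposited intensity files hold background-corrected signals that the authors' scanner software made per array; the authors' series table holds log2 values after quantile normalization with limma (version not given in the sources used here), which by row number equalled the median signal in rank on every array (Spearman 1) and served as an alternative. Here log2 processed signals of all spots were quantile normalized, outlier spots left out (161 probe values, none of a member), 1639 control spots dropped and the spots of a probe averaged. limma 3.58.1 (R 4.3.3) fitted 1 mean per population over all arrays, with eBayes and Benjamini-Hochberg adjustment over 41174 probes at 0.05. Scanning runs and slides were taken from the file headers. In data simulated from these arrays, with 100 probes per size changed, the fit of MEP against the others recovered 77% of changes of 2 and 37% of changes of 1 (log2). These shares were 65% and 15% for MEP against CMP and 65% and 25% for CMP against GMP. For HSC subsets they were 88% and 66% against the myeloid populations and 76% and 39% against GMP. The number of arrays limits the precision.

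The members, 12 gene lists and comparisons were chosen with earlier results of these data known. Named were every probe of every member, the 5 gene names, members left out, closest to each of 3 members among probes well above background on at least 3 arrays, the 3 called genes per list with the largest difference in MEP, and every globin superfamily gene; Slc4a1, Alas2 and the values of Klf1 and Gata1 in HSC subsets were chosen after their values were seen. Some items that this rule names are not reported here. A listed gene stood for its brightest probe. Promoters came from RefSeq (GRCm38.p6) and were matched by symbol. An Ahsp transcript was not matched in the gene table. Alternatives were another scaling, normexp (offset 50), the series table, a filter on dim probes (2 arrays), outlier and saturated spots, scanning run, slide or replicate label as a block (the last also over CMP, GMP and MEP alone, where all 9 pairs of 1 label correlated in their deviations, at 0.21 to 0.68), 1 value per gene, and leaving out arrays.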

Additional observations from a re-analysis of the deposited data

How the results depend on the processing

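The 5 adult globin probes and Eraf kept their direction in every comparison under every alternative, apart from Eraf in HSC subsets against the myeloid populations (0.22 with the scanning run as a block). Counted by gene name rather than by probe, 4 of 6 names differed over the populations, for which no count over all names is given. In MEP against the mean of the others 3 were called, beside 4443 (brightest probe) or 4909 (mean of the probes) of 28090 names called higher. In MEP against CMP 3 were called, beside 2170 or 2128. In HSC subsets against GMP 4 were called, beside 4225 or 3516. In HSC subsets against the myeloid populations the brightest probe gave 4, beside 6083, and the mean of the probes 3, beside 5091. Within run 1, MEP against CMP called 1 probe, beside 4909 of all 41174 probes called higher. With the run as a block, HSC subsets against the myeloid populations called 1 probe, as lower, beside 7.64% of all probes called lower. CMP against GMP called 3 probes with the slide as a random block, beside 4.34% of all probes. With the replicate block it called 6, the adult globins and Eraf, beside 4.22%. A replicate block over the CMP, GMP and MEP arrays alone, chosen after seeing the data, called 5 there, the adult globins, beside 5.1% of all probes. Eraf had a limma adjusted p of 0.051 in that fit. Deviations of arrays of 1 label correlated at 0.21 to 0.68 in all 9 pairs among CMP, GMP and MEP, but at -0.10 to 0.08 in the 11 pairs across runs, and in run 1 a number was also 1 slide. The 3 pairs between ST-HSC and MPP correlated at 0.50 to 0.77 as well. The pairs of an HSC and a myeloid array reached 0.13 at most, so the labels were not taken as pairs in the comparisons of HSC subsets, whose p-values treat arrays of 1 label as independent. Neither block changed another count by over 1.5 times.

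With 1 array left out, the F-test called 6 to 7 probes, MEP against the others 3 to 6, MEP against CMP 4 to 6, CMP against GMP 0 to 1, HSC subsets against the myeloid populations 6 to 7 and against GMP 6 to 8. Hbb-y in MEP against the others (-0.03) turned to 1.17 with the run as a block, where it became a call (limma adjusted p = 0.0069), 0.29 with the slide, 0.034 with the replicate block, 0.17 without LT-HSC, 1.17 within run 1 and 1.10 within run 2, and ranged from -0.25 to 0.22 with 1 array left out. Hbb-y in CMP against GMP (0.03) turned to -0.056 after normexp, -0.11 in the series table and -0.50 within run 2, and ranged from -0.30 to 0.35. Hbb-y in HSC subsets against the myeloid populations turned to -0.37 with the run as a block and -0.14 within run 2. These Hbb-y values lie at background on most myeloid arrays, with 0 CMP arrays and 1 GMP array well above it. The cause was not tested. Scaling to the 75th percentile put the median of all probes at 0.49 in MEP against CMP, 0.31 in HSC subsets against the myeloid populations and 0.39 against GMP, so the member differences there are to be read from those values. It changed the split of all called probes from 7478 higher and 9528 lower to 10854 and 6088 against the myeloid populations, and from 5277 and 7205 to 7223 and 4776 against GMP.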

Other observations

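Platelet and stem cell genes ran against the globins in MEP. For each list in this paragraph the shares of all probes were 13.4% lower and 17.9% higher. Of 12 megakaryocyte and platelet markers 8 were lower and 2 higher in MEP than in the others taken as a mean. Among the lower were Pf4 (-3.42) and Itgb3 (-2.71), although MEP also give rise to megakaryocytes. All 10 stem cell markers were lower in MEP, among them Procr (-4.54, well above background on 1 of 3 MEP arrays) and Robo4 (-4.38). Of 8 GMP markers 7 were lower in MEP, led by Csf3r (-2.90), Ctsg (-2.73) and Cebpa (-2.65).

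In MEP 17.9% of all probes were called higher and 13.4% lower. Beside these shares, macrophage markers gave 6 lower of 12, with Csf1r (-3.46), Spic (-2.99, well above background on 1 of 3 MEP arrays) and Cd68 (-2.19). B cell markers gave 3 lower and 2 higher of 11, with Igh-6 (-3.70), Cd79b (-3.27) and Ms4a1 (-2.67, well above background on no MEP array). T and NK cell markers gave 2 lower and 1 higher of 11, with Cd8a (-1.77) and Gzma (1.47), both well above background on no MEP array, and Lck (-1.25). Mature neutrophil markers gave 1 lower of 11, Mmp8 (-1.27, well above background on 1 of 3 MEP arrays).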
